A study of Caenorhabditis elegans with 4 samples.

Results

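The H3K4me3 peaks of chromosome IV of Caenorhabditis elegans are every region on that chromosome in the 2 deposited peak lists, 588 of 3811 peaks in replicate 1 and 535 of 3487 peaks in replicate 2, or 1123 of 7298 over both lists. They were selected by chromosome name alone, so no measured value entered the rule. Earlier results of these data were known when the peaks were chosen. Both replicates were ChIP-seq libraries from wild-type (N2) embryos of mixed stages, bleached out of gravid adults, fixed with formaldehyde and immunoprecipitated with the mouse monoclonal antibody WA30534819 against histone H3 trimethylated at lysine 4 (H3K4me3). A mixed-stage embryo extract pools many cell types and ages, so a peak present in few cells and a weak peak present in all cells cannot be told apart. The labels do not say whether the 2 replicates came from separate cultures, and their spread may be technical. The series also has 2 input libraries of unprecipitated N2 embryo DNA, which were not analysed here.

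H3K4me3 is laid down around the start sites of transcribed genes by COMPASS-type methyltransferases, and its peaks are commonly read as marks of active promoters. LEM-2 is a transmembrane protein of the inner nuclear membrane that binds the lamina network, so stretches of DNA associated with it lie at the nuclear periphery. In worm autosomes such stretches, called LEM-2 subdomains, fill most of the arms and are separated by gaps, while the central region is largely free of them. The study asked how marks of active chromatin are placed against these subdomains and gaps. Here the same question is put to chromosome IV, whose subdomains, gaps, arm borders and length were taken from the coordinate tables of the study. All coordinates are in ce4, the build of those tables, although the peak lists themselves name no build.

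Replicate 1 gives the main value throughout because the study used that replicate for H3K4me3, and the value of replicate 2 follows it. Read counts are not in the lists, so the depth behind each value could not be computed from them. The methods of the study give fewer aligned reads for replicate 2, and its peaks were fewer, narrower and lower in score on every chromosome. With 2 replicates of 1 group, an exact two-sided sign-flip permutation test cannot give a p below 0.5, and it gave 0.5 for the density of chromosome IV minus the mean of the other 5 chromosomes. All values below are therefore descriptions, with the SD over 2 replicates or an exact Clopper-Pearson 95% interval that covers counting error only, and no difference between chromosome IV and another chromosome was shown by a test.

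Chromosome IV was among the sparsely marked chromosomes. It held 33.6 and 30.6 peaks per Mb in replicates 1 and 2 (mean 32.1 ± 2.14, SD, n = 2), the fifth of the 6 chromosomes in both, whereas the other chromosomes had between 24.6 (V) and 50.6 (III) peaks per Mb in replicate 1 and between 22.4 (V) and 46.0 (III) in replicate 2. The density of chromosome IV minus the mean of the other 5 was -6.74 and -6.39 peaks per Mb (mean -6.56 ± 0.244, SD, n = 2). The 2 replicates were thus close to each other in this difference, although chromosome V lay lower still. Chromosome X lay just above chromosome IV, at 35.8 and 32.4 peaks per Mb. The peaks covered 1.70 Mb of the 17.5 Mb of chromosome IV in replicate 1 and 1.36 Mb in replicate 2, a covered share of 9.70% and 7.80% (mean 8.75 ± 1.34, SD, n = 2), against 11.6% and 9.41% of the other 5 chromosomes together.

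Peaks on chromosome IV were about as wide as elsewhere at the median but less often very broad. Their median width was 2422 bp in replicate 1 and 2221 bp in replicate 2 (mean 2321 ± 142 bp, SD, n = 2), against 2381 bp and 2192 bp for the peaks of the other 5 chromosomes pooled. The narrowest peak measured 1365 bp in replicate 1 and 1254 bp in replicate 2, and the widest 11506 bp and 9564 bp. At the 90th percentile the width was 4658 bp and 4055 bp. Peaks of 5 kb or more numbered 47 of 588 in replicate 1 (7.99%, interval 5.93 to 10.5%) and 16 of 535 in replicate 2 (2.99%, 1.72 to 4.81%). Over all 6 chromosomes the share of such peaks was 10.1% in replicate 1 and 5.56% in replicate 2. Chromosome IV had the lowest share of the 6 in both replicates, while the other chromosomes ran between 8.18% (III) and 11.5% (X) in replicate 1 and between 5.05% (III) and 7.67% (X) in replicate 2. The other 5 pooled had 10.5% (9.42 to 11.6%) and 6.03% (5.20 to 6.95%). These intervals treat peaks as separate counts and do not cover the spread between chromosomes or replicates, so the difference was not tested.

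Of the 3 widest replicate 1 peaks that replicate 2 also overlapped, 2 lay in gaps and the third spanned a gap much shorter than itself. The widest was chrIV:16487422-16498927 (11506 bp, score 3100), in a medium gap of the right arm. In replicate 2 the same stretch held 2 peaks, chrIV:16487646-16495888 and chrIV:16496344-16498471. The next was chrIV:11564898-11574656 (9759 bp, score 3100), in a large gap of the central region, which replicate 2 called at almost the same borders, chrIV:11564909-11574472 (9564 bp). The third was chrIV:1908066-1915941 (7876 bp, score 1343), which ran over a whole small gap of the left arm, 1769 bp long, and lay mostly in the subdomains on both sides. Replicate 2 split it into peaks of 2318 bp and 4692 bp, both with their midpoints in subdomains.

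Neighbouring peaks were unevenly spaced. The median distance from the end of a peak to the start of the next was 15056 bp in replicate 1 and 17311 bp in replicate 2 (mean 16184 ± 1595 bp, SD, n = 2), against pooled medians of 12571 bp and 14585 bp on the other 5 chromosomes. The medians of single chromosomes ran between 10.1 kb (I) and 19.8 kb (V) in replicate 1 and between 11.5 kb (III) and 23.1 kb (V) in replicate 2, so chromosome IV lay within their range. Distances under 1 kb made up 6.47% and 6.55% of those on chromosome IV, close to the 6.59% and 6.55% on the other 5 chromosomes. Distances over 50 kb were 88 of 587 in replicate 1 (15.0%) and 94 of 534 in replicate 2 (17.6%). On the other 5 pooled they were 11.1% and 13.98%, with a range over chromosomes of 5.46% (III) to 21.6% (V) in replicate 1. In replicate 2 it was 8.06% (III) to 24.6% (V), and chromosome X had 15.0% and 18.7%. The mean distance on chromosome IV was 26.8 kb and 30.1 kb, well above the median.

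**Figure D1:**
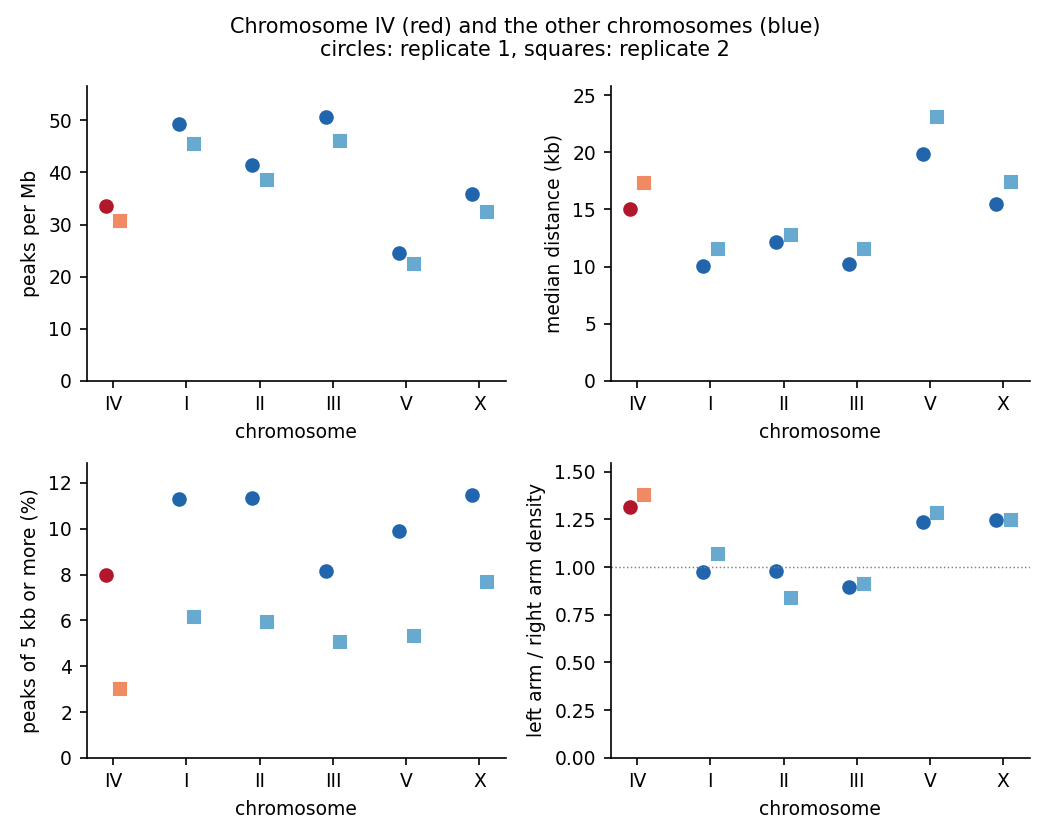
Peaks per Mb, median distance between neighbouring peaks in kb, share of peaks of 5 kb or more in percent, and the density of the left arm over that of the right arm, for chromosome IV (red) and each other chromosome (blue). Circles are replicate 1 and squares replicate 2. Chromosome IV had 33.6 and 30.6 peaks per Mb, the lowest share of broad peaks (7.99% and 2.99%) and the highest left-to-right ratio (1.32 and 1.38).

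Along chromosome IV the peaks were densest in the central region, which is 5.31 Mb long, the shortest of the 6 centres. It held 246 of 588 peaks in replicate 1 (41.8%, interval 37.8 to 45.9%) and 218 of 535 in replicate 2 (40.7%, 36.6 to 45.0%) on 30.4% of the length. That was 46.3 and 41.1 peaks per Mb in the centre, against 28.1 and 26.0 peaks per Mb in both arms together, a centre-to-arm ratio of 1.65 and 1.58 (mean 1.61 ± 0.0513, SD, n = 2). Over all 6 chromosomes the centres held 52.7% and 52.0% of peaks on 40.8% of the length. The centre-to-arm ratio of chromosome IV was the fourth of the 6 in each replicate. On the other chromosomes it ran between 1.21 (X) and 1.96 (V) in replicate 1 and between 1.14 (X) and 1.85 (V) in replicate 2.

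The 2 arms of chromosome IV differed in density. The left arm, 6.74 Mb long, had 212 and 200 peaks, or 31.5 and 29.7 per Mb, whereas the right arm, 5.44 Mb long, had 130 and 117 peaks, or 23.9 and 21.5 per Mb. The left-to-right ratio was 1.32 in replicate 1 and 1.38 in replicate 2 (mean 1.35 ± 0.0449, SD, n = 2), the highest of the 6 chromosomes in both replicates. The other chromosomes ran between 0.898 (III) and 1.25 (X) in replicate 1 and between 0.838 (II) and 1.29 (V) in replicate 2. The low density lay in the outer right arm. From the arm border to 14 Mb, a point set after the bins had been seen, the right arm had 37.4 and 33.3 peaks per Mb over 1.95 Mb, more than the left arm as a whole, and from there to the end it had 16.3 and 14.9 peaks per Mb over 3.49 Mb. LEM-2 subdomains filled 81.6% of the left arm and 87.7% of the right arm, and the part of this in the density difference was not tested.

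Peak shape differed little between the arms and the centre. Median widths were 2432 bp and 2234 bp in the left arm, 2428 bp and 2186 bp in the centre, and 2356 bp and 2205 bp in the right arm, a spread smaller than the difference between the replicates. Median distances within each region were 17.1 kb and 19.0 kb in the left arm, 13.6 kb and 16.2 kb in the centre, and 16.0 kb and 16.7 kb in the right arm. The right arm thus had the lowest density of the 3 and an intermediate median distance, and it held the longest distance between neighbours on the chromosome, 519 kb in both replicates.

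In steps of 1 Mb, the most densely marked megabase of replicate 1 was chrIV:8000001-9000000 with 52 peaks in replicate 1 and 39 in replicate 2. In replicate 2 it was chrIV:11000001-12000000, with 51 peaks in replicate 1 and 47 in replicate 2. The sparsest was chrIV:15000001-16000000 in both replicates, with 9 and 8 peaks. The 7 bins before 7 Mb had between 25 and 39 peaks in replicate 1 and between 22 and 38 in replicate 2, and the full bins from 14 Mb outwards had between 9 and 22 and between 8 and 20. LEM-2 subdomains filled none of the bin beginning at 7 Mb and 1.96% of the bin with 52 peaks, but 98.3% of the sparsest bin. Over the 17 full bins the rank correlation of peak number with the share of bases in subdomains was -0.777 in replicate 1 and -0.706 in replicate 2, and that between the replicates was 0.951. These are descriptions over adjoining bins that share 1 library each.

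**Figure D2:**
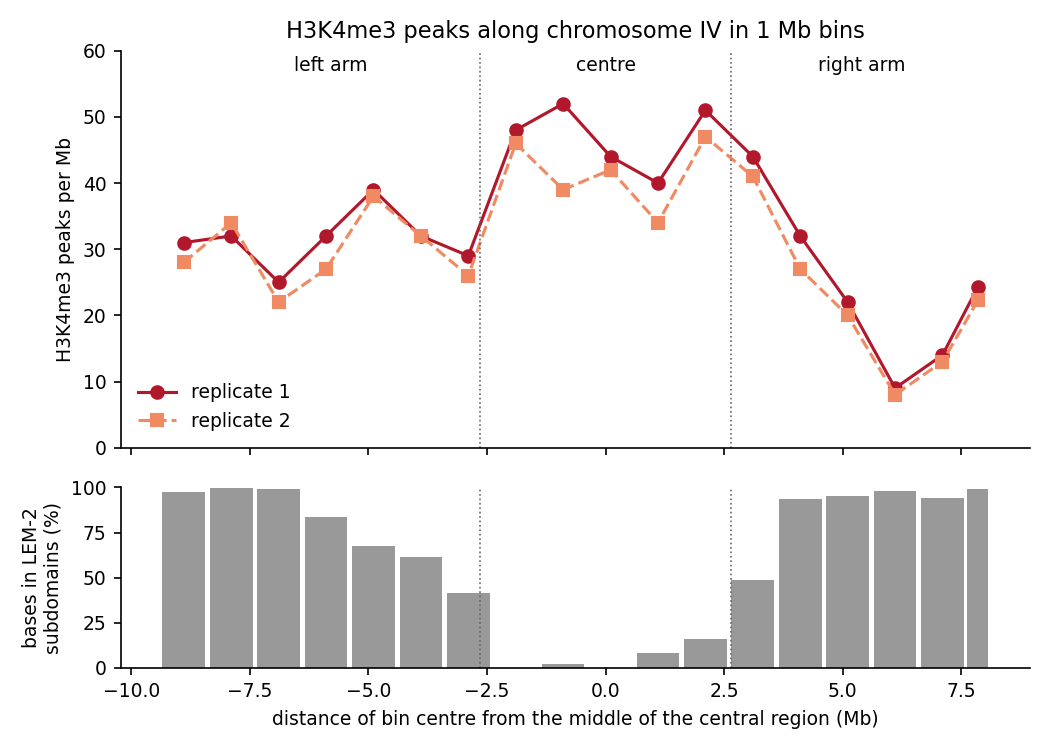
H3K4me3 peaks per Mb in 1 Mb bins along chromosome IV (upper panel, red circles for replicate 1 and orange squares for replicate 2) and the percentage of each bin's bases in LEM-2 subdomains (lower panel, grey bars), against the distance of the bin from the middle of the central region in Mb. Dotted lines mark the arm borders. Peaks were densest in and beside the centre, at up to 52 per Mb, and sparsest in the outer right arm, at 9 and 8 peaks in the emptiest bin.

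The longest empty stretches of chromosome IV lay almost wholly in LEM-2 subdomains. Neither replicate had a peak in chrIV:15649082-16167792 (519 kb, right arm), chrIV:15041164-15470379 (429 kb, right arm) or chrIV:4811803-5076104 (264 kb, left arm). At least 99.4% of the bases of each were in subdomains. In all, 20 stretches of 100 kb or more had no peak in either replicate, 9 in the right arm and 11 in the left arm. Together they made up 3.51 Mb, 20.0% of chromosome IV, whereas on the other chromosomes such stretches made up between 5.70% (III) and 35.6% (V). No stretch of that length lay in the centre of chromosome IV, where the longest distance between neighbouring peaks was 88.4 kb in replicate 1 and 94.3 kb in replicate 2.

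Chromosome IV has 74 LEM-2 subdomains, which cover 10.6 Mb or 60.3% of it, and 73 gaps. The study sorted gaps by length, and on chromosome IV 27 are small (up to 9699 bp), 37 medium (up to 92.5 kb), 7 large and 2 extra large, the last class covering 3.81 Mb in the centre. By midpoint, 203 of 588 peaks lay in subdomains in replicate 1 (34.5%, interval 30.7 to 38.5%) and 180 of 535 in replicate 2 (33.6%, 29.6 to 37.8%). Over all 6 chromosomes 30.0% of replicate 1 peaks and 29.7% of replicate 2 peaks did so, and subdomains fill 49.6% of them. Chromosome X, where subdomains fill only 17.7% of the length, lowers the pooled share of peaks. On the other 4 autosomes this share was 34.5% and 34.1%, close to that of chromosome IV, on 55.4% of their length.

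Gaps were more densely marked than subdomains. All gaps of chromosome IV together held 55.5 and 51.2 peaks per Mb, against 19.2 and 17.1 in subdomains, a gap-to-subdomain ratio of 2.89 and 3.00 (mean 2.94 ± 0.0814, SD, n = 2). Without the 2 extra large gaps, the remaining 71 gaps held 205 and 199 peaks, or 65.5 and 63.6 per Mb, 3.41 and 3.73 times the density of subdomains (mean 3.57 ± 0.228, SD, n = 2). Both ratios ranked second of the 6, behind chromosome V. For the ratio without extra large gaps, the other chromosomes ran between 2.31 (I) and 5.00 (V) in replicate 1 and between 2.30 (I) and 5.62 (V) in replicate 2.

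On chromosome IV, the shorter the class of gap, the denser its marking. This full order did not hold on the other 5 chromosomes pooled. Large gaps there had 46.1 and 44.3 peaks per Mb in replicates 1 and 2, below the 50.2 and 45.6 of extra large gaps. Small gaps of chromosome IV held 18 peaks in each replicate, or 179 per Mb, medium gaps 73.9 and 70.7 per Mb, large gaps 53.2 and 52.0, and extra large gaps 47.3 and 41.0. The density in small gaps was above that of every other chromosome, where it ran between 114 and 170 per Mb in replicate 1 and between 135 and 170 in replicate 2, but it rests on 18 peaks in 0.101 Mb. A small gap is of about the length of a peak, so that a single midpoint gives it a high density. Counted in bases, peaks covered 49.1% and 45.0% of small gaps, 25.3% and 20.8% of medium, 16.4% and 13.8% of large and 12.7% and 9.60% of extra large gaps, against 5.25% and 4.23% of subdomains, and the order was the same.

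Peaks in small and medium gaps of chromosome IV were also wider and higher in score than those in its extra large gaps and subdomains. The median width was 3326 bp and 2502 bp in small gaps, 3014 bp and 2526 bp in medium, 2522 bp and 2322 bp in large and 2388 bp and 2116 bp in extra large gaps, against 2213 bp and 2128 bp in subdomains. The score of a peak is 10 times the negative log10 of its MACS p-value and piles up near 3100. Its median was 2933 and 1017 in small gaps and 2278 and 808 in medium gaps. It was 1835 and 686 in large and 1363 and 585 in extra large gaps, against 1900 and 687 in subdomains. Peaks in subdomains were thus no lower in median score than those in extra large gaps. On the other 5 chromosomes pooled, median scores were 1631 and 682 in medium gaps and 1547 and 577 in extra large gaps. This order was not the same on every chromosome. On X it was reversed in both replicates, at 648 and 354 against 1059 and 416. In medium gaps of the other chromosomes, the median width ran between 2100 bp (X) and 2886 bp (I) in replicate 1 and between 1985 bp (X) and 2625 bp (II) in replicate 2.

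**Figure D3:**
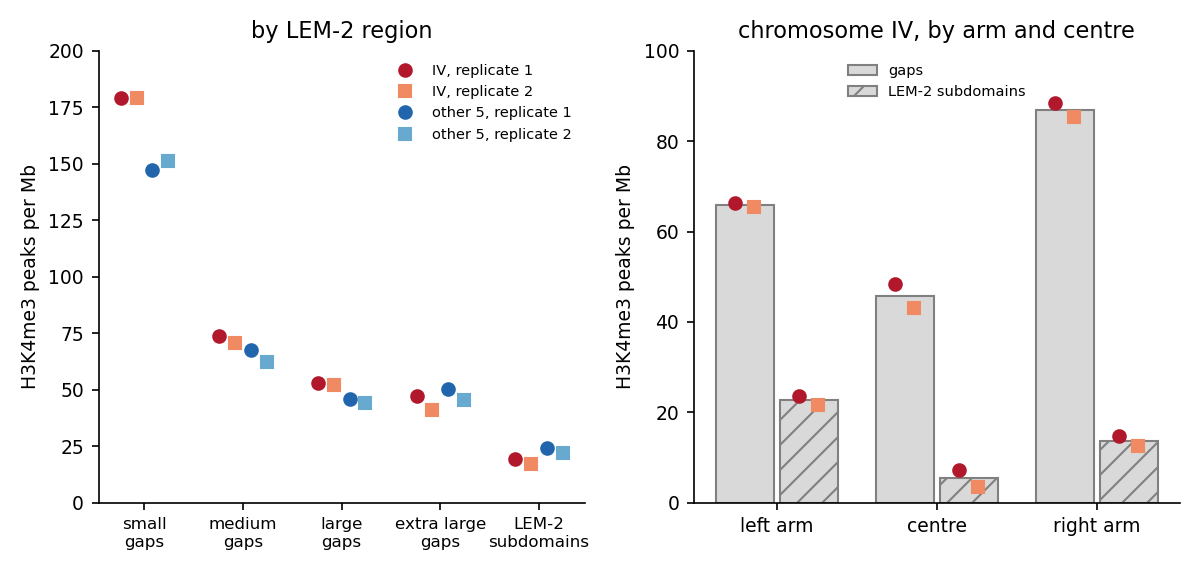
Left, H3K4me3 peaks per Mb in each class of gap and in LEM-2 subdomains, for chromosome IV (red and orange) and the other 5 chromosomes pooled (blue), with circles for replicate 1 and squares for replicate 2. Right, peaks per Mb in gaps (plain bars) and subdomains (hatched bars) of the left arm, centre and right arm of chromosome IV, where bars are means of the replicates and points the replicates. Small gaps had 179 peaks per Mb and subdomains 19.2 and 17.1, and in the right arm gaps had 88.4 and 85.4 peaks per Mb against 14.9 and 12.6 in subdomains.

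The contrast between gaps and subdomains was present in each region of the chromosome. In the left arm gaps had 66.2 and 65.4 peaks per Mb and subdomains 23.6 and 21.6, a ratio of 2.80 and 3.02. In the right arm gaps had 88.4 and 85.4 peaks per Mb and subdomains 14.9 and 12.6, a ratio of 5.95 and 6.80. The right arm was thus the more densely marked of the 2 in its gaps and the less densely marked in its subdomains. The right arm of chromosome V, the next highest right arm in both replicates, had a ratio of 4.94 and 6.01. In the centre gaps had 48.5 and 43.1 peaks per Mb, and subdomains, which cover 0.279 Mb there, held 2 peaks in replicate 1 and 1 in replicate 2.

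Most gaps of chromosome IV were touched by a peak, and a smaller share of its subdomains. At least 1 base of a peak lay in 22 and 21 of 27 small gaps, in 36 of 37 medium gaps in both replicates, and in all 7 large and both extra large gaps. Over all 6 chromosomes peaks touched 71.6% and 68.5% of small gaps, 93.2% and 91.8% of medium gaps, and all large and extra large gaps. Peaks touched 53 of 74 subdomains in replicate 1 (71.6%, interval 59.9 to 81.5%) and 49 in replicate 2 (66.2%, 54.3 to 76.8%), close to the 70.6% and 65.8% of all 360 subdomains of the 6 chromosomes. Neither replicate touched 20 subdomains, whose median length was 33.3 kb and whose longest was 78.2 kb. Split at the median length, the 37 shorter subdomains had 12.1 and 9.55 peaks per Mb, against 20.1 and 18.0 in the 37 longer ones, and 25 and 28 of the shorter held no peak midpoint, against 2 and 7 of the longer. The counts without a midpoint depend on length, which the densities take into account.

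The 2 extra large gaps, chrIV:6745902-8570000 and chrIV:8589552-10574750, held 85 and 74 peaks, and 95 and 82 peaks, in replicates 1 and 2. The subdomain of 19.6 kb between them, chrIV:8570001-8589551, had no peak in either list. Of the large gaps, chrIV:4641483-4762082 in the left arm was the most densely marked, with 13 peaks in each replicate on 121 kb, or 108 per Mb. The longest, chrIV:11293252-12013424 at the right side of the centre, held 35 and 34 peaks. The other large gaps were chrIV:5911502-6122894 with 8 and 8 peaks, chrIV:6545502-6667671 with 8 and 7, chrIV:10655952-10984667 with 12 and 12, chrIV:12078652-12222358 with 11 and 11, and chrIV:12352409-12473956 with 7 and 7. In all 7 large gaps the replicates differed by at most 1 peak.

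The 3 longest subdomains differed widely from each other. The longest, chrIV:658203-1824501 in the left arm (1166 kb), held 35 and 34 peaks, or 30.0 and 29.2 per Mb. The next, chrIV:15649201-16392367 in the right arm (743 kb), held 2 and 3 peaks, and peaks covered 0.769% and 0.949% of it. The third, chrIV:14076932-14763560 in the right arm (687 kb), held 11 and 9. The longest was thus marked at close to the density of the whole chromosome, while the next was nearly bare.

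Among smaller regions, the longest medium gap with peaks, chrIV:12542202-12634740 (92.5 kb), held 5 and 6. The medium gap that no peak touched was chrIV:10621002-10637500 (16.5 kb). The longest small gap with a peak, chrIV:6414952-6424650 (9699 bp), held 1 in each replicate. Of the 5 small gaps untouched in both replicates, the longest was chrIV:4310789-4314609 (3821 bp) and the other 4 measured between 94 and 983 bp, shorter than any peak.

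Most peaks in subdomains lay over 5 kb from an edge, as most subdomain bases do, but their density was higher near the edges. The median distance between the midpoint and the nearest edge was 73.0 kb in replicate 1 and 74.3 kb in replicate 2. Of these peaks 84.2% and 82.8% lay over 5 kb inside, a smaller share than the 93.0% of the subdomain bases. Within 5 kb of an edge the density was 43.2 and 41.9 peaks per Mb, against 17.4 and 15.2 farther in. On the other 5 chromosomes it was 37.1 and 34.6 within 5 kb, against 23.0 and 20.9 farther in. The 3 deepest replicate 1 peaks also present in replicate 2 all lay in the longest subdomain. They were chrIV:1238655-1240580, 581 kb from the nearest edge with a score of 3100 in replicate 1 and 902 in replicate 2, chrIV:1276745-1278322, at 547 kb with scores of 141 and 56.3, and chrIV:1176880-1179092, at 520 kb with scores of 3100 and 2038.

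At the edges of subdomains, peaks were more frequent on the side of the gap. Coverage was taken at each edge, within 5 kb on each side or up to the end of a shorter gap, and averaged over edges. A short gap thus counts as much as a full 5 kb, and the averages are not shares of pooled bases. Over the 73 left edges of chromosome IV that border a gap, mean coverage in replicate 1 was 33.7% on the gap side. Within the subdomain it was 16.4%, a difference of 17.3 percentage points (SE over edges 4.84). In replicate 2 the sides had 30.0% and 11.3%, a difference of 18.7 (SE 4.35). The gap side was the more covered at 37 of the 73 edges in both replicates and the less covered at 12 and 10. At the other 24 and 26 edges the sides were equal. At the 73 right edges the contrast was larger, with 40.7% in the gap, against 11.9% within the subdomain in replicate 1, a difference of 28.8 points (SE 4.01), and 37.1% and 11.3% in replicate 2, a difference of 25.8 (SE 3.84). On the other 5 chromosomes the differences were 21.5 (SE 2.19) and 19.3 (SE 2.05) at left edges and 22.2 (SE 1.99) and 20.2 (SE 1.96) at right edges. The study reports much the same result for both sides of its boundaries over all chromosomes. The difference between left and right edges on chromosome IV was not tested. Coverage at the left edges of chromosome IV fell off inside the subdomain over several kb. Within 2 kb of the edge the difference was 7.48 points in replicate 1 and 9.59 in replicate 2. A peak that spans a boundary counts on both sides, and neighbouring edges can share a peak, so the SE over edges treats as separate what is partly shared.

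**Figure D4:**
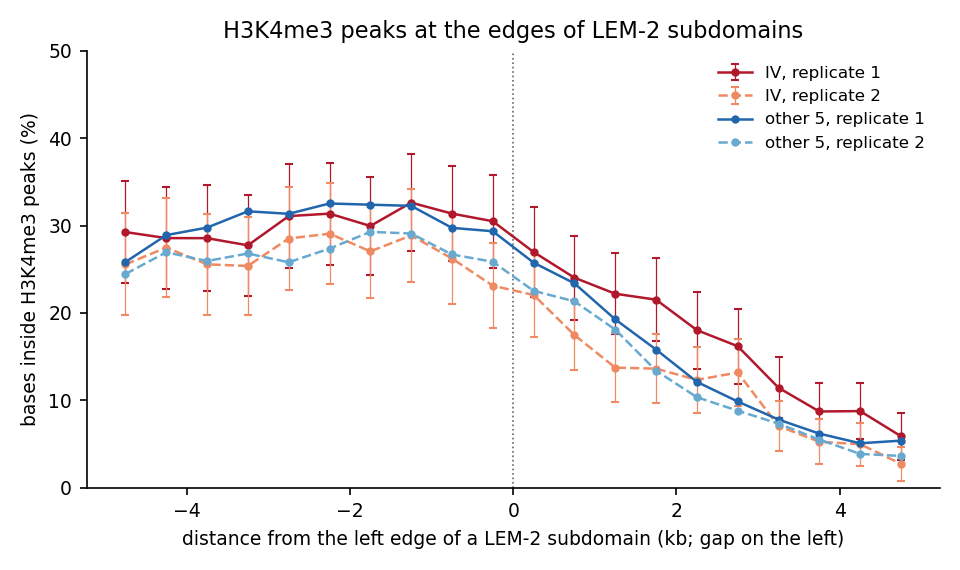
Percentage of bases inside H3K4me3 peaks in 500 bp steps around the left edges of LEM-2 subdomains, against distance in kb, with the gap to the left of 0 and the subdomain to the right. Solid lines are replicate 1, dashed lines replicate 2, red and orange chromosome IV (bars are the SE over edges, between 54 and 73 of them a step) and blue the other 5 chromosomes. On chromosome IV in replicate 1, coverage was between 27.7% and 32.6% in the gap and decreased to 5.90% in the last step inside the subdomain.

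The replicates agreed on most of the peaks. On chromosome IV 508 of 588 replicate 1 peaks (86.4%, interval 83.4 to 89.1%) were overlapped by at least 1 base of a replicate 2 peak, and 524 of 535 replicate 2 peaks (97.9%, 96.4 to 99.0%) by a replicate 1 peak. Over all 6 chromosomes the shares were 86.2% and 97.3%. With a reciprocal overlap of 50% the shares on chromosome IV were 83.3% and 91.6%. By region, replicate 2 overlapped 18 of 18 replicate 1 peaks in small gaps, 82 of 93 in medium, 86 of 94 in large and 150 of 180 in extra large gaps, and 172 of 203 in subdomains.

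Whether a peak recurred went with its score. Of the replicate 1 peaks scoring under 100, 5 of 43 were overlapped by replicate 2, and of those between 100 and 200, 19 of 41. Between 200 and 500 it was 53 of 70, between 500 and 1000 61 of 64, and all 161 between 1000 and 3100 and all 209 at 3100 or more recurred. On the other 5 chromosomes the share was also higher at higher scores, with 52 of 240 peaks under 100 (21.7%), 41.9%, 78.1% and 97.1% in the next 3 bands, and all but 1 peak of 1000 or more. The lowest band of chromosome IV, at 11.6%, rests on 43 peaks, and its difference from the other chromosomes was not tested. The 80 replicate 1 peaks without a partner had a median score of 103 and a median width of 1693 bp, and the 508 with a partner 2396 and 2527 bp. Those without a partner were spread over the chromosome. They were 24 of 212 peaks in the left arm, 39 of 246 in the centre and 17 of 130 in the right arm. The highest-scoring of them was chrIV:7094266-7099894 (5629 bp, score 829), in the first of the extra large gaps. In replicate 2, 11 peaks had no partner, and the highest score among them was 230.

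**Figure D5:**
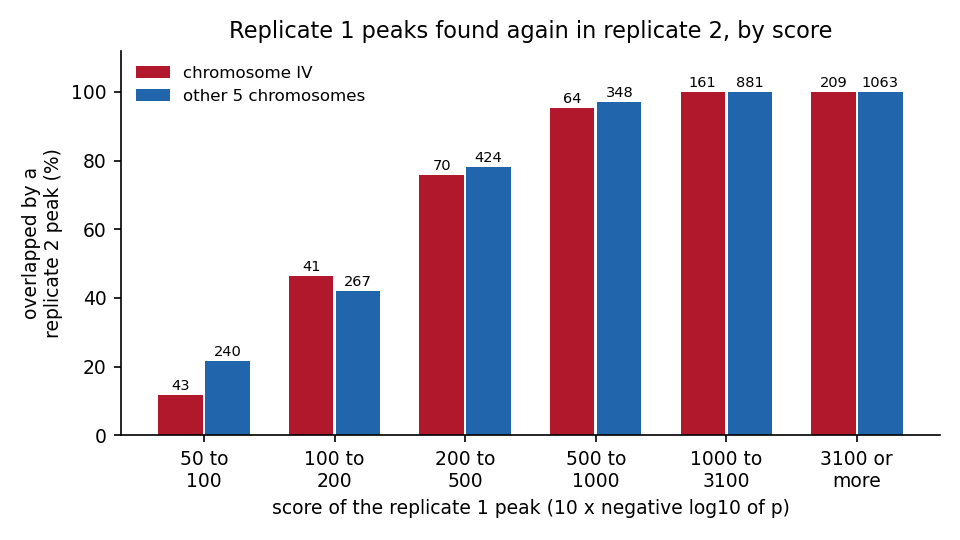
Percentage of replicate 1 peaks overlapped by at least 1 base of a replicate 2 peak, by the score of the replicate 1 peak, for chromosome IV (red) and the other 5 chromosomes (blue). The number over each bar is the number of replicate 1 peaks. On chromosome IV the share was 11.6% in the lowest band and 100% from a score of 1000 upwards.

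For the 489 pairs of chromosome IV peaks that overlapped 1 to 1, position was close. Their midpoints lay a median of 61.5 bp apart, and 90% lay within 361 bp. The replicate 1 peak was the wider in 428 of 489 pairs (87.5%), by a median of 197 bp over these 489 pairs. Pairs from all chromosomes gave similar values, with 2763 of 3164 wider in replicate 1 (87.3%) and a median midpoint distance of 59.75 bp. The rank correlation between the replicates over the 489 pairs of chromosome IV was 0.864 for width and 0.904 for score. Over the pairs of all chromosomes it was 0.892 and 0.917. These are descriptions over peaks of the same 2 libraries. The scores were not on a common level, as 209 of 588 chromosome IV peaks reached 3100 in replicate 1 and 40 of 535 in replicate 2. These shares, 35.5% and 7.48%, were close to the 33.4% and 7.31% of all chromosomes. Within a list wider chromosome IV peaks scored higher. The rank correlation of width and score was 0.560 in replicate 1 and 0.714 in replicate 2. For the peaks of all chromosomes it was 0.560 and 0.704. Of the chromosome IV peaks that overlapped without pairing 1 to 1, most were divided in replicate 2. In all, 17 replicate 1 peaks overlapped 2 or more replicate 2 peaks. Only 1 replicate 2 peak overlapped 2 or more replicate 1 peaks.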

How the data were processed

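The authors ran MACS on each H3K4me3 replicate separately, keeping peaks at p-values up to 1e-05. The deposited score of a peak is the negative log10 of that p-value, multiplied by 10. BWA is listed in the submitters' processing notes. The version of MACS, the build and the filters are not given with the lists, and ce4 was used because the study's own H3K4me3 profiles and LEM-2 tables are in it. Region tables were used only for their coordinates.

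Starts were converted to count from 1, peaks were assigned by midpoint, and gaps that ended on the first base of a subdomain were ended 1 base earlier. Width is end minus start as deposited. Regions and peaks were named by a fixed rule, namely the 3 widest shared peaks, the 3 longest empty stretches, the 3 deepest shared peaks in subdomains, the 3 longest subdomains, every large and extra large gap, the longest medium and small gaps with and without a peak, the extreme 1 Mb bins and the highest-scoring unshared peak. The subdomain between the extra large gaps was added after its values were seen. The peaks and measures were chosen with earlier results of these data known. No genome or gene annotation in ce4 was used, so genes and sequences are not given. Counting steps were tested on simulated data. The tools were scipy 1.17.1, pandas 2.3.3 and numpy 2.4.6 under Python 3.11.15, with matplotlib 3.10.9 for plots.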

Additional observations from a re-analysis of the deposited data

How the results depend on the processing

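Across the alternatives, 51 values of 11 results on chromosome IV were recomputed, and none reversed. Only the ratios and differences could have reversed. The density, covered share, width, distance, share in subdomains and overlap have no direction, so for them this outcome was fixed in advance. Of the 51 values, 20 moved by less than the SD between replicates (for the overlap of replicates, within its counting interval) and 31 by more. With 2 replicates, leaving out replicate 1 always moves a value by more than this SD, so those moves carry no information on stability. Without replicate 1, the density was 30.6 peaks per Mb, the covered share 7.80%, the median width 2221 bp, the median distance 17311 bp, the centre-to-arm ratio 1.58, the share in subdomains 33.6%, the gap-to-subdomain ratio 3.00, or 3.73 outside extra large gaps, the left-edge difference 18.7 points, and the density minus the mean of the other 5 chromosomes -6.39. With only replicate 1 peaks shared by replicate 2, density was 29.0, median distance 17692 bp, centre-to-arm ratio 1.58, share in subdomains 33.9%, gap-to-subdomain ratio 2.97, or 3.65 outside extra large gaps, and the edge difference 18.6. With a score of 200 or more, density was 28.8, median distance 17693 bp and the replicate overlap 96.0%. Between midpoints the median distance was 17775 bp. With the chromosome divided into 3 equal lengths, the centre-to-arm ratio was 1.60. Counted in bases, the share in subdomains was 32.7% and the ratios 3.14 and 4.01. By any overlap, 38.8% of peaks lay in a subdomain. The edge difference was 7.48 points with 2 kb windows and 28.8 at right edges. The overlap was 97.9% as a share of replicate 2 peaks and 83.3% when reciprocal. Against the other 4 autosomes the density difference was -7.87. The last, and the difference without replicate 1, were chosen after seeing the data.

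No paired analysis was possible because the 2 peak lists belong to 1 group and the inputs were not analysed here. Without inputs or reads, mappability, copy number and depth could not be measured, and their part in the density along chromosome IV was not tested. Peaks of a library are not replicates, and all intervals cover counting error only. The pile-up of scores near 3100 limits any reading of the strongest peaks. In low bands of score most replicate 1 peaks have no partner in replicate 2, so counts of weak peaks are the least certain.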
